A study of Mus musculus with 16 samples.

Results

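The comparison described here set 4 mouse epiblast stem cell (EpiSC) lines, labelled primed, against 4 embryonic stem cell lines kept in LIF and serum, labelled naive. Its members are the 8 arrays whose titles name these conditions, out of 16 arrays in the series. The arrays were picked by title and not by measured values, but the comparison itself was chosen with earlier results of these data known. All lines were of the 129/Ola strain. The EpiSC lines came from the epiblast of day 6.5 embryos and grew with Activin A and bFGF (called EpiSC below). The LIF_serum lines came from pre-implantation embryos and grew with leukaemia inhibitory factor and serum. Each condition was represented by 4 separate lines with 1 array each, so the spread given below is the spread between lines. Passage numbers were 24, 24, 24 and 28 for EpiSC lines 1 to 4, and 23, 24, 26 and 26 for LIF_serum lines 1 to 4. Embryo stage, medium and cell state differed together between the groups and cannot be told apart. The other 8 arrays held lines grown in inhibitor media, 2i_LIF and 2iSB_LIF, and entered the filter on dim probes and the common estimate of the spread; a few of their levels are given beside the others.

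As background, naive embryonic stem cells correspond to the epiblast of the blastocyst and depend on LIF, which acts through STAT3 on a network of factors that includes Esrrb, Tfcp2l1 and Klf4. Primed EpiSCs correspond to the epiblast after implantation and depend on FGF, which acts through ERK kinases, and on Activin or Nodal, which act through SMAD proteins. Both states share the core factors Oct4 (gene Pou5f1) and Sox2.

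A level below is the log2 of the processed spot signal minus the 75th percentile of the same array, so 0 is the 75th percentile and a step of 1 is a doubling. Levels of different genes come from different probes and were not set against each other. A difference is the EpiSC mean minus the LIF_serum mean, with its standard error (SE) from limma. A gene was called where limma's adjusted p (Benjamini-Hochberg over all genes tested) was under 0.05 and the difference reached 2-fold. On the 8 arrays, 51.5% to 62.3% of 55681 probes were well above background, and 15509 genes passed the filter on dim probes. Across these genes the EpiSC arrays correlated with each other at 0.990 to 0.995, and with the LIF_serum arrays at 0.843 to 0.879.

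The LIF_serum lines fell into pairs. Lines 1 and 2 correlated at 0.991 and lines 3 and 4 at 0.995, against 0.955 to 0.965 between the pairs. Between the pairs, 463 genes (2.99%) were higher and 844 (5.44%) lower in lines 3 and 4. The labels give lines 1 and 2 codes beginning with LS and lines 3 and 4 codes beginning with LSFF, without saying what the codes mean. Lines 1 and 2 were hybridised on one slide, and lines 3 and 4 with all EpiSC lines on the other, so among the LIF_serum arrays slide and pair coincide. The inhibitor arrays, 6 on the first slide and 2 on the second, allow slide as a term of the fit. With it, 300 genes were higher and 675 lower in lines 3 and 4, and 154 and 398 of these were also called without it. A call is termed stable below where it also held against each pair alone.

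The markers of the 2 states followed the labels. Fgf5, a ligand of the post-implantation epiblast, had levels of 4.42, 3.72, 3.64 and 3.58 in EpiSC lines 1 to 4 and −1.85, −0.26, −2.04 and −2.13 in LIF_serum lines 1 to 4. Dusp2, a phosphatase that switches ERK off, had 5.91, 6.41, 5.97 and 5.53 in EpiSC and −0.23, 1.17, 0.59 and 0.84 in LIF_serum. Every EpiSC line was above every LIF_serum line for both genes, by 42.5-fold for Fgf5 (difference 5.41, SE 0.90, adjusted p = 0.00014) and 41.0-fold for Dusp2 (5.36, SE 0.39, adjusted p = 4.1e-08). Esrrb, a nuclear receptor that activates naive genes, had −2.14, −2.41, −2.58 and −2.50 in EpiSC and 6.50, 6.32, 5.70 and 5.72 in LIF_serum. Dppa5a, an RNA-binding protein of naive cells, had −3.43, −3.20, −2.97 and −3.51 in EpiSC and 8.23, 8.11, 8.35 and 8.37 in LIF_serum. Neither gene's groups overlapped. The difference was −8.47 for Esrrb (SE 0.19, adjusted p = 1.1e-13) and −11.54 for Dppa5a (SE 0.16, adjusted p = 5.2e-16). In the inhibitor media Esrrb was at 6.70 ± 0.15 (SD, n = 4) in 2i_LIF and 6.68 ± 0.17 in 2iSB_LIF, and Fgf5 at −5.11 ± 1.87 and −5.75 ± 1.81. These Fgf5 means lay near or below the lowest measurable signal of an array, its dimmest probe well above background. That signal was −4.97 to −5.29 in 2i_LIF and −4.94 to −5.46 in 2iSB_LIF.

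Over all genes, 2786 of 15509 (18%) were higher and 2427 (15.6%) lower in EpiSC, 33.6% in all. The counts of list members given below are to be read beside these shares. A gene passed the filter through any 1 group, so members dim in the other group could mostly be called in 1 direction only. Stable calls numbered 1950 higher (12.6%) and 1827 lower (11.8%). With slide as a term 2747 were higher and 2482 lower, and within the slide that holds all EpiSC lines 3017 and 2690. The calls were uneven in size, with 146 of the higher and 471 of the lower genes changed over 16-fold, and 15 and 184 over 64-fold. These are fitted sizes and include values below the lowest measurable signal. That signal lay at −5.54 to −6.17 on EpiSC arrays and −4.44 to −4.99 on LIF_serum arrays. The part of this gap in the uneven sizes was not tested. All EpiSC lines lay above all LIF_serum lines for 32.8% of genes and below them for 26%, so the groups did not overlap for 58.8%. The median difference of all genes was 0.07. Centring each array on its median in place of the 75th percentile moved this median to 0.61 and the higher share of calls from 53.4% to 75.9%, so small differences turn direction with the scaling.

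**Figure D1:**
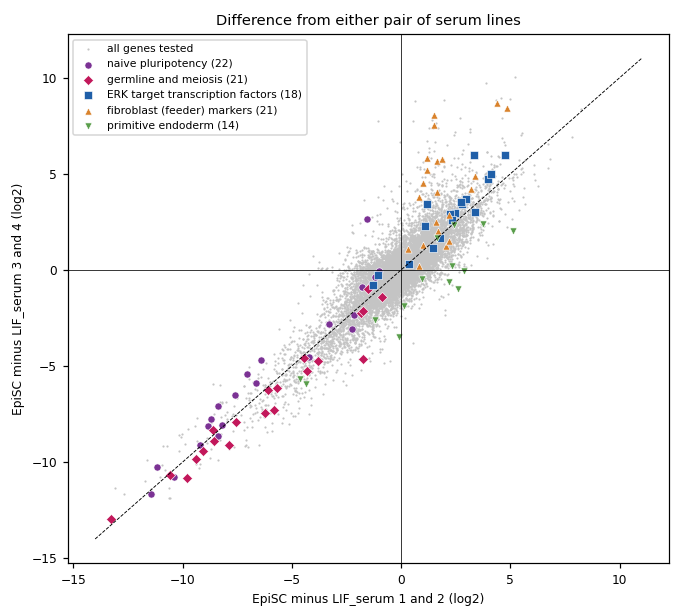
Difference of the EpiSC mean from LIF_serum lines 1 and 2 (horizontal axis, log2) against that from lines 3 and 4 (vertical axis, log2) for all 15509 genes, with members of 5 gene lists coloured; the dashed line marks equal differences. Both axes use the same EpiSC arrays, so points near the line are not independent support; naive and germline genes lie at the lower left, fibroblast markers mostly above the line, and 1 naive gene (Gbx2) has opposite signs.

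Named genes with large rises were ranked by the smaller of their differences from either pair of LIF_serum lines. Heph, a copper-dependent ferroxidase, led with EpiSC levels of 1.68, 1.62, 1.68 and 1.43 against −3.64, −3.94, −4.07 and −4.18 in LIF_serum. Dusp2, Akr1c18 (a steroid-reducing enzyme), Igfbp5 (a binding protein of insulin-like growth factors), Asb4 (an adaptor of ubiquitin ligases) and Fgf5 followed. Slit1, an axon guidance ligand, had the smallest error of the 12, at 5.06 (SE 0.19, adjusted p = 5.5e-11). The others were Egr4 (an immediate-early zinc finger factor), Lor and Sprr1a (proteins of the cornified envelope of skin), Prl2c5 (a prolactin-family hormone) and Thsd7a (a membrane protein with thrombospondin repeats). Their differences ran from 4.49 for Prl2c5 to 5.56 for Heph, and the groups overlapped for none of the 12, as the rule for naming them required.

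The largest falls were deeper. Pigp, a subunit of the enzyme that starts the synthesis of glycosylphosphatidylinositol anchors, had −3.05, −3.05, −2.96 and −3.38 in EpiSC and 8.50, 8.20, 8.30 and 8.32 in LIF_serum. Its groups stood 11.44 apart (SE 0.17, adjusted p = 1.2e-15), next to Dppa5a. The rest were Fam25c, Dnmt3l (a cofactor of DNA methyltransferases), Esrrb, Tuba3a (an alpha-tubulin of testis), Mageb16 (a MAGE-family gene), Zfp42 (the zinc finger protein Rex1), Gtsf1l (related to a gametocyte factor), Dpys (dihydropyrimidinase, of pyrimidine breakdown), Tdh (threonine dehydrogenase) and Phf11d (a PHD finger protein). Their differences lay between −7.37 for Phf11d and −8.52 for Fam25c.

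**Figure D2:**
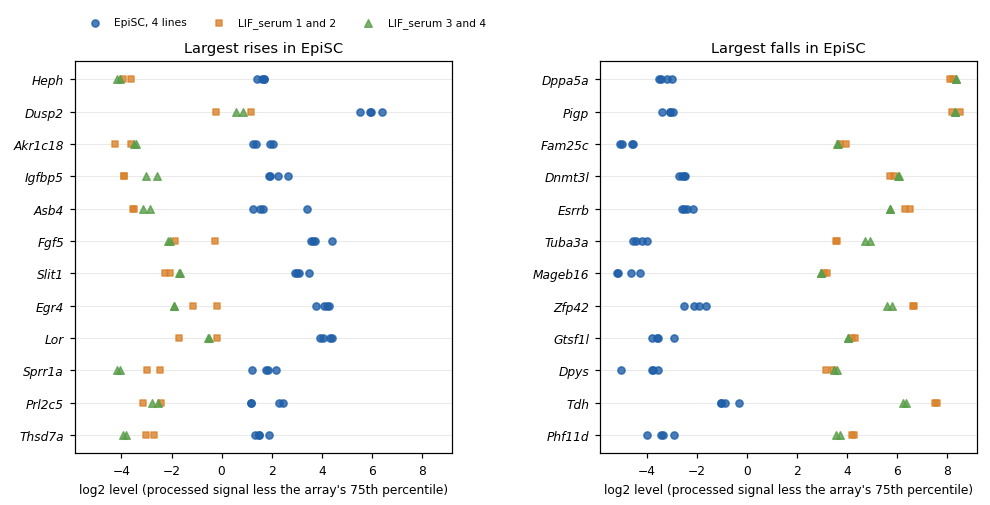
Log2 levels (horizontal axes) of the 12 largest named rises (left) and falls (right), 1 point per line: 4 EpiSC lines, LIF_serum lines 1 and 2, and LIF_serum lines 3 and 4. In each row the EpiSC points are separate from the LIF_serum points; Dppa5a and Pigp stand over 11 log2 steps apart.

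For some genes 1 group was not well above background on any array, so only a lower bound of the change is given. Values of the dim group below the lowest measurable signal of their array were raised to it. Dim values above it were kept as measured, so the bounds are approximate. For Tcl1 (below) only 2 EpiSC arrays, and for Mmp10 (below) only 2 LIF_serum arrays, lay under that signal. Cer1, which binds Nodal and BMP outside the cell, was higher in EpiSC by at least 95.0-fold, at 3.22, 0.60, 1.44 and 1.76. Mmp10 (a stromelysin), Crispld1 (a secreted cysteine-rich protein) and Tfpi2 (a protease inhibitor) were at least 26.5-fold, 24.9-fold and 21.6-fold higher. Bounds in the other direction were larger. Rpl10l, a ribosomal protein gene of the testis, was at least 2281-fold lower, and Zscan4f, a telomere-associated gene of 2-cell-like cells, at least 1222-fold lower. Tcl1, a coactivator of AKT kinase, and Khdc3, a maternal factor of the egg, were at least 1204-fold and 1098-fold lower. Other named genes were below the lowest measurable signal on some arrays without meeting this rule. Their fitted differences are given with the smaller size, marked "at least" or "raised", that is left when those arrays are set to that signal. Bounds with no array well above background applied to 277 higher genes (1.79%) and 304 lower genes (1.96%). Zscan4f, Tuba3a, Akr1c18 and Prl2c5 belong to families of near-identical copies, and a probe may read several copies.

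The naive network was low in EpiSC as a group, with 19 of 22 genes called lower, 0 higher and 17 of the calls stable. The median difference was −6.25, beside 0.07 over all genes. Besides Esrrb, Dppa5a and Zfp42, the transcription factors Tfcp2l1 (−6.26, SE 0.30), Nr5a2 (−6.23, SE 0.36), Nr0b1 (−5.55, SE 0.44) and Prdm14 (−8.13, SE 0.33, with 3 EpiSC arrays below the lowest measurable signal, −7.29 when raised to it) fell. Tbx3, a T-box factor, fell by less (−3.06, SE 0.30). Dppa3, the maternal factor Stella, was at −7.32, −6.65, −7.48 and −8.00 in EpiSC and between 2.95 and 3.46 in LIF_serum, a fall of at least 545-fold. Fgf4, the FGF ligand of naive cells, dropped from 5.91, 5.75, 6.12 and 6.23 to 1.31, 1.73, 1.59 and 1.92, which is 20.6-fold.

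The Krüppel-like factors and Nanog moved little in comparison. Nanog, a homeobox factor that holds cells in the pluripotent state, had 2.08, 2.40, 1.82 and 2.49 in EpiSC and 3.67, 3.50, 2.99 and 2.96 in LIF_serum. The lines did not overlap, and the difference was −1.08 (SE 0.24, adjusted p = 0.0015). It missed the 2-fold minimum against LIF_serum lines 3 and 4 (−0.78), with slide as a term (−0.90), without LIF_serum line 1 (−0.95) and without EpiSC line 3 (−0.96). With median centring (−0.55, adjusted p = 0.10) or the mean of all Nanog probes (−0.47, adjusted p = 0.16) the adjusted p did not pass either. Klf2 fell by 1.35 (SE 0.25, adjusted p = 0.00042), but not by 2-fold against LIF_serum lines 3 and 4 (−0.90) or with median centring (−0.81). Klf4 did not pass in the whole comparison (−0.54, SE 0.28, adjusted p = 0.12) and differed by −1.03 from lines 1 and 2 and −0.04 from lines 3 and 4. Gbx2, a homeobox target of LIF, had −0.03, 0.30, 0.44 and −0.10 in EpiSC, 1.90 and 1.55 in LIF_serum lines 1 and 2, and −2.51 and −2.49 in lines 3 and 4. The EpiSC lines thus lay between the pairs, and the difference from the pairs was −1.57 and 2.65.

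Core pluripotency genes stayed closer together than the naive network, with a median of −0.48, which became 0.06 under median centring. Of 14 genes 1 was higher and 3 lower, beside 18% and 15.6% over all genes, so the counts do not set the list apart. Without the fold minimum 2 were higher and 7 lower. Pou5f1 had 5.67, 5.75, 5.64 and 5.60 in EpiSC and 6.39, 6.14, 5.97 and 5.92 in LIF_serum. These did not overlap, but the difference of −0.44 (SE 0.16, adjusted p = 0.035) was under 2-fold and turned to 0.10 under median centring. Sox2 (−1.48, SE 0.16), Terf1, a telomere-binding protein (−1.47, SE 0.18), and Utf1, a chromatin factor (−1.34, SE 0.24), fell in stable calls; all 3 were under 2-fold with median centring. Lin28b, an RNA-binding protein that blocks let-7 maturation, rose (1.40, SE 0.23, adjusted p = 0.00016), while its paralogue Lin28a did not pass (0.41, SE 0.23).

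Among 20 genes of the primed epiblast, 12 were higher and 1 lower, with 7 and 1 stable and a median of 1.61. Pou3f1 (Oct6), a POU factor of epiblast and neural cells, had 4.84, 5.23, 5.16 and 4.65 in EpiSC and 1.84, 2.52, 2.33 and 2.53 in LIF_serum. All EpiSC lines were higher (2.66, SE 0.27, adjusted p = 1.3e-06). Sox3, a relative of Sox2, rose by 2.29 (SE 0.53), and Ncam1, a cell adhesion molecule, by 3.66 (SE 0.43). Members of the list did not all move this way. Otx2, a homeobox factor of the epiblast and anterior neural tissue, had 4.33, 3.22, 3.51 and 4.14 in EpiSC and 3.93, 4.16, 5.21 and 5.33 in LIF_serum. The groups overlapped, and the difference of −0.86 did not pass (SE 0.36, adjusted p = 0.058). Against lines 3 and 4 alone it was −1.47 (adjusted p = 0.0034), and Otx2 passed as lower also with slide as a term (−1.26) and without LIF_serum line 1 (−1.10), LIF_serum line 2 (−1.02) or EpiSC line 1 (−1.03). Grhl2, a factor of epithelial enhancers, was the lower member (−2.54, SE 0.69, adjusted p = 0.0060).

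FGF ligands and receptors changed in both directions, with 4 of 12 higher and 3 lower, all stable, and a median of 0.29. The median was 0.65 against LIF_serum lines 1 and 2, −0.07 against lines 3 and 4 and 0.83 under median centring. Fgf5 (above), Fgf8, a ligand of the primitive streak (2.81, SE 0.50), and Fgf7, a ligand made by stroma (5.31, SE 1.03, at least 4.23), rose. Fgf4 (above) and Fgf17 (−4.03, SE 0.36, or −3.99 with 1 dim EpiSC array raised) fell. Of the receptors, Fgfr1 had 5.13, 5.18, 5.20 and 4.95 in EpiSC against 3.56, 3.52, 3.70 and 3.66 in LIF_serum, and Fgfr4 had −3.55, −3.57, −3.45 and −3.54 against −0.78, −0.66, 0.31 and 0.34. Neither overlapped, with a rise of 1.51 for Fgfr1 (SE 0.12, adjusted p = 1.4e-07) and a difference of −3.33 for Fgfr4 (SE 0.38, adjusted p = 4.7e-06).

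Of the 12 feedback inhibitors that ERK signalling induces, 7 were higher and 0 lower, all 7 stable, with a median of 2.06 (1.32 against LIF_serum lines 1 and 2, 2.97 against lines 3 and 4). Besides Dusp2, the phosphatases Dusp5 (3.90, SE 0.44) and Dusp6 (3.50, SE 0.39) rose. Dusp6 was at 6.33, 5.95, 5.85 and 6.05 in EpiSC, 3.26 and 3.44 in LIF_serum lines 1 and 2, and 1.66 and 1.83 in lines 3 and 4. The Sprouty inhibitors differed among themselves. Spry2 rose (2.33, SE 0.42), Spry1 was lower in all EpiSC lines without reaching 2-fold (−0.96, SE 0.22; −1.06 without LIF_serum line 1 and −1.05 without EpiSC line 1), and Spry4 depended on the pair. Spry4 had −0.75, −0.66, −1.14 and −1.55 in EpiSC, −0.85 and −1.04 in LIF_serum lines 1 and 2, and −5.45 and −5.37 in lines 3 and 4. Its difference was thus −0.08 from lines 1 and 2 and 4.39 from lines 3 and 4 (at least 3.69), and it did not pass over all lines (2.15, adjusted p = 0.072), but passed with slide as a term (3.45), with median centring (2.69) and without LIF_serum line 1 (2.93) or line 2 (2.87).

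Transcription factors that ERK induces early were mostly higher, with 14 of 18 called up, 13 of them stable, 1 down and a median of 2.64. Egr1 had 6.70, 6.86, 6.57 and 7.08 in EpiSC and 3.48, 4.21, 2.97 and 3.21 in LIF_serum, a rise of 3.34 (SE 0.41, adjusted p = 9.4e-06) without overlap. Egr2 (4.36, SE 0.56) and Egr4 (5.38, SE 0.83) rose with it. The AP-1 subunits Fos (2.46, SE 0.38), Fosl1 (4.65, SE 0.60, at least 4.53), Fosl2 (4.54, SE 0.41) and Junb (3.14, SE 0.23) were higher as well. The ETS factors that FGF induces did not follow. Etv5 was lower (5.67, 5.52, 5.54 and 5.53 in EpiSC against 6.75, 6.94, 6.29 and 6.45), with a difference of −1.04 (SE 0.20, adjusted p = 0.00051), and Etv4 did not pass (−0.66, SE 0.34, adjusted p = 0.12). Etv5 lost the 2-fold minimum without LIF_serum line 1 (−0.99) or line 2 (−0.93), against LIF_serum lines 3 and 4 (−0.81) and with quantile normalization (−0.93). Under median centring it did not pass at all (−0.50, adjusted p = 0.15).

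**Figure D3:**
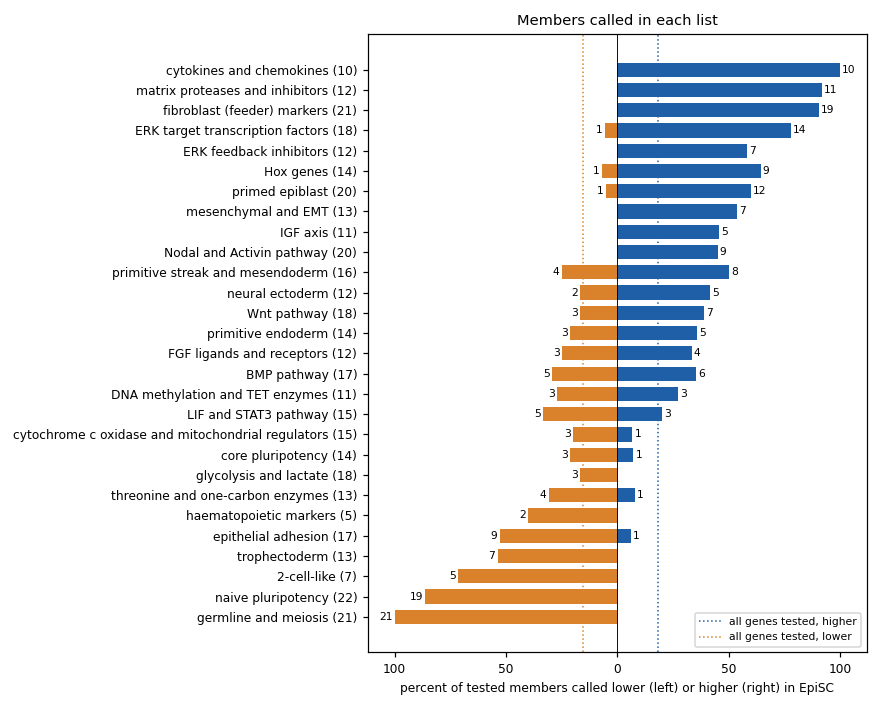
Share of the tested members of each gene list (number in brackets) called lower (orange, to the left) or higher (blue, to the right) in EpiSC, in percent, with counts beside the bars; dotted lines mark the shares over all genes tested, 15.6% lower and 18% higher. All 21 germline genes tested were lower and all 10 cytokines tested higher. Of the germline genes 11 were well above background on no EpiSC array, and 5 of the cytokines were so on all 8 arrays.

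Nodal and Activin pathway genes had 9 of 20 higher and 0 lower, 6 of them stable, with a median of 0.95. The secreted Nodal inhibitors Lefty1 and Lefty2 were nearly level across the EpiSC lines and differed between the pairs of LIF_serum lines. Lefty1 was at 6.55, 6.65, 6.50 and 6.48 in EpiSC, 3.56 and 3.97 in LIF_serum lines 1 and 2, and 1.81 and 1.69 in lines 3 and 4. Lefty2 was at 6.50, 6.53, 6.49 and 6.82, then 3.23 and 3.75, then 1.24 and 1.29. Both were higher in every EpiSC line, by 3.78 (SE 0.49, adjusted p = 1.5e-05) and 4.20 (SE 0.55, adjusted p = 1.8e-05). Nodal itself (1.65, SE 0.26) and Inhba, the subunit of Activin A (3.85, SE 0.90), rose. Inhba differed by 1.49 from LIF_serum lines 1 and 2 and by 6.20 from lines 3 and 4. Of the 20 genes, 6 were lower in lines 3 and 4 than in lines 1 and 2, and 0 higher. Tdgf1, the Nodal co-receptor Cripto, was lower without reaching 2-fold (−0.88, SE 0.15, adjusted p = 0.00022), and passed as lower against LIF_serum lines 1 and 2 (−1.03), with the mean of all its probes (−1.31) and in the authors' deposited table of levels (−1.01). In 2iSB_LIF, levels were −5.01 ± 0.53 (SD, n = 4) for Lefty1 and −1.90 ± 0.15 for Lefty2, and in 2i_LIF 3.87 ± 0.75 and 4.24 ± 1.08. The Lefty1 level in 2iSB_LIF was near the lowest measurable signal there (−4.94 to −5.46).

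Primitive streak genes had 8 of 16 higher and 4 lower, 5 and 2 stable, with a median of 0.89. Without EpiSC line 1 there were 5 higher and 4 lower (median 0.65). Of the 9 members well above background on all 16 arrays, 3 were higher and 3 lower, with a median of −0.68. Eomes, a T-box factor of mesendoderm, had 1.54, 0.31, 0.14 and 0.29 in EpiSC and −1.45, −1.19, −2.05 and −1.73 in LIF_serum (2.18, SE 0.32, adjusted p = 5.0e-05). Gsc, a homeobox gene of the organiser, had 1.94, −0.90, −0.43 and 0.21 against −2.49, −1.96, −2.27 and −2.08 (2.40, SE 0.51, adjusted p = 0.0012). EpiSC line 1 was the highest EpiSC line for Cer1, Eomes, Gsc, Fgf8 and T. T, the streak factor Brachyury, had 1.33, −1.37, −0.92 and −0.90 in EpiSC and −2.94, −0.54, −3.31 and −3.11 in LIF_serum. The groups overlapped through LIF_serum line 2, and the call (2.01, SE 0.72, adjusted p = 0.028) was lost without EpiSC line 1 (1.42) and without LIF_serum line 1 (1.86), line 3 (1.74) or line 4 (1.80). The call was not stable, as it was lost against LIF_serum lines 1 and 2 (1.28, adjusted p = 0.22). It was also lost in a fit of only the 8 arrays (adjusted p = 0.0504). Mesp1, a factor of early mesoderm, was lower (at least 5.06-fold), and so was Cdx1, a caudal homeobox target of Wnt (−4.31, SE 0.55).

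LIF and STAT3 pathway genes had 3 of 15 higher and 5 lower, with a median of −0.30 that became 0.24 under median centring. Lifr, the LIF receptor, had −0.39, −0.998, −1.02 and −1.14 in EpiSC and 2.08, 1.93, 1.27 and 1.26 in LIF_serum, with no overlap (−2.52, SE 0.28, adjusted p = 3.2e-06). Socs3, the feedback inhibitor of the receptor, fell by 1.09 (SE 0.12), under 2-fold with median centring (−0.56). Osmr, the receptor of oncostatin M, rose (4.52, SE 1.09, at least 3.81), with −0.21 and −0.65 in LIF_serum lines 1 and 2 and −6.60 and −5.67 in lines 3 and 4. Of 17 BMP pathway genes 6 were higher and 5 lower, with a median of −0.62. Under median centring 6 were higher and 2 lower (median −0.08), and the median was −0.08 against LIF_serum lines 1 and 2 and −0.77 against lines 3 and 4. The ligand Bmp4 fell (−2.07, SE 0.46) and the signal transducer Smad5 rose (1.68, SE 0.19). Bmp2 rose (2.58, SE 0.63) but missed the threshold against LIF_serum lines 3 and 4 (1.62, adjusted p = 0.054). Of 18 Wnt pathway genes 7 were higher and 3 lower, with a median of 0.38, and 4 were higher against LIF_serum lines 1 and 2. Lgr5, a receptor of R-spondins, was at least 8.72-fold higher, and the ligand Wnt3 rose by 2.15 (SE 0.60).

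Enzymes and readers of DNA methylation split evenly, with 3 of 11 higher and 3 lower, all stable, and a median of 0.22 (−0.003 with slide as a term). The de novo methyltransferase Dnmt3a had 2.13, 2.18, 2.15 and 2.17 in EpiSC and 0.61, 0.55, 0.80 and 0.82 in LIF_serum (1.46, SE 0.25, adjusted p = 0.00019). Dnmt3b, its partner, ran between 6.13 and 6.61 in EpiSC and between 6.38 and 7.20 in LIF_serum, overlapping, and did not pass (−0.41, SE 0.40, adjusted p = 0.40). The cofactor Dnmt3l fell from 5.87, 5.73, 6.09 and 6.04 to −2.58, −2.47, −2.50 and −2.71. The oxidases of methylcytosine Tet1 (−1.92, SE 0.32) and Tet2 (−1.79, SE 0.25) fell. Methylation itself was not measured.

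Genes of the germline and of meiosis were low in EpiSC without exception among those tested, with 21 of 21 called lower and 18 stable. Over all genes tested 15.6% were called lower. The median difference was −6.55, or −5.21 with values below the lowest measurable signal raised to it and −3.45 with normexp background correction, where 19 were lower. All 8 members well above background on all 16 arrays were lower (median −3.16). Of the 21 genes, 11 were close to background throughout the EpiSC arrays (not well above it on any), and 2 further genes of the list, Tdrd1 and Tdrd9, were below the filter in every group. Those 11 passed the filter through other groups, so a call of higher was hardly open to them. Sycp3, of the synaptonemal complex, had −6.03, −5.31, −6.11 and −5.83 in EpiSC and 3.53, 3.64, 3.98 and 4.04 in LIF_serum (−9.61, SE 0.31, adjusted p = 1.1e-11, or −9.39 with EpiSC lines 1 and 3 raised to the lowest measurable signal). Ddx4, the germ cell helicase Vasa, was at least 189-fold lower, with 1.41, 1.65, 1.85 and 1.94 in LIF_serum. Mael, of piRNA silencing, and Syce1, of the synaptonemal complex, were at least 432-fold and 705-fold lower. Hormad1, a meiotic chromosome protein (at least 108-fold), Stk31, a germ cell kinase (52.8-fold), and Dazl, an RNA-binding protein of germ cells (36.9-fold), were lower by bounds as well. Stag3, a meiotic cohesin, fell by 4.26 log2 steps (SE 0.33).

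Many promoters of these genes, but not all, held the same short sequence. The E-box CACGTG, which reads the same on both strands, was present in the 250 bases before the start in 13 of 20 promoters (65%), belonging to 11 of the 18 germline genes with an entry. It was present in 6.02% of all 32851 promoters in the RefSeq table and in 7.89% of the 15493 promoters of the genes tested. The E-box holds the base pair step CG. The median number of CG in the 250 bases was 18 for the germline list, 14 for the genes tested and 6 for all promoters. The part of base composition in these shares was not tested. The promoters of Ddx4, Sycp3, Stk31 and Hormad1 are shown because they hold the E-box close to the start of genes with some of the larger falls. Each line gives the last 120 bases before the start from RefSeq (build GRCm38.p6, 5′ to 3′ on the gene's strand), with the E-box in capitals.
Ddx4, chr13:112652311-112652430, minus strand: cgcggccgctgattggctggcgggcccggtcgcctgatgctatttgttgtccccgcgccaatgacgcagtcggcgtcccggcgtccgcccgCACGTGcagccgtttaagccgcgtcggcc
Sycp3, chr10:88459467-88459586, plus strand: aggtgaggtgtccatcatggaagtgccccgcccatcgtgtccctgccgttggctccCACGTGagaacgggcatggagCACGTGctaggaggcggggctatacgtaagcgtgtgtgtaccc
Stk31, chr6:49395419-49395538, plus strand: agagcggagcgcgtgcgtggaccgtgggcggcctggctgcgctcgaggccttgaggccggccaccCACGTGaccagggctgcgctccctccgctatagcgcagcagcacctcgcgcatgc
Hormad1, chr3:95559557-95559676, plus strand: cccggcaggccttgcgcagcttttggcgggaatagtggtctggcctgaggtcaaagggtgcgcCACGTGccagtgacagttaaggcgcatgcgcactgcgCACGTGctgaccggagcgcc
Counted from the start, with −1 as the last base before it, the E-box begins at −29 in Ddx4 and −55 in Stk31. Sycp3 and Hormad1 each hold 2, beginning at −64 and −43 and at −57 and −20. No binding was measured here, and a match is a description of the letters.

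Of 7 genes of the 2-cell-like state that were tested, 5 were lower and 0 higher, all 5 stable, with a median of −6.70 (−5.00 with the lowest measurable signal, −2.74 with normexp). Of the 2 genes well above background on all 16 arrays 0 were called (median −0.70). Zscan4c had 4.17, 3.58, 2.18 and 2.10 in LIF_serum and between −8.29 and −7.16 in EpiSC, all below the lowest measurable signal, which leaves a difference of −8.86. Trophectoderm genes had 7 of 13 lower and 0 higher, 6 stable, with a median of −2.08 (−1.15 against LIF_serum lines 1 and 2, −2.99 against lines 3 and 4). Tfap2c, an AP-2 factor, had −0.10, 0.27, −0.18 and 0.30 in EpiSC and 3.53, 3.18, 3.08 and 3.05 in LIF_serum (−3.13, SE 0.29, adjusted p = 5.1e-07). Rhox6, a homeobox gene of placenta and germ cells (−9.27, SE 0.79, or −8.12 with 3 dim EpiSC arrays raised), and Hand1, a bHLH factor of trophoblast (−3.96, SE 0.80, or −3.07 with 2 raised), fell.

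Primitive endoderm genes depended on the pair of LIF_serum lines. Of 14 genes 5 were higher and 3 lower, and the median was 1.92 against lines 1 and 2 and −0.56 against lines 3 and 4 (0.02 with slide as a term, 3 higher and 4 lower). Lines 3 and 4 had 5 of the 14 higher than lines 1 and 2, and 0 lower. Lama1, a laminin chain of basement membrane, fell against both, from 4.31, 3.81, 5.61 and 5.75 to 0.26, −0.43, −0.36 and −0.59 (−5.15, SE 0.39). Hnf4a, a nuclear receptor of visceral endoderm, also fell (−5.16, SE 0.47). Col4a1, a collagen of basement membrane, had 2.92, 2.87, 3.06 and 2.29 in EpiSC, −0.06 and −0.12 in lines 1 and 2, and 2.95 and 2.77 in lines 3 and 4. Its difference was 2.87 from lines 1 and 2 and −0.07 from lines 3 and 4, and it passed only without line 3 (1.92) or line 4 (1.86) among the fits that left out 1 array.

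Genes of epithelial adhesion had 9 of 17 lower and 1 higher, 6 and 0 stable, with a median of −1.55. Against LIF_serum lines 1 and 2 there were 6 lower and 3 higher (median −0.82), and against lines 3 and 4 12 lower and 0 higher (median −2.49), with 5 of the 17 higher in lines 3 and 4 than in lines 1 and 2. Cdh1, E-cadherin, had 1.28, 1.43, 1.89 and 1.51 in EpiSC and 3.64, 3.96, 4.40 and 4.35 in LIF_serum, 5.91-fold lower without overlap (adjusted p = 7.9e-05). The splicing regulators Esrp1 (−3.33, SE 0.33) and Esrp2 (−3.72, SE 0.27) and the tight junction protein Tjp3 (−3.27, SE 0.47) fell. Of 13 mesenchymal genes 7 were higher and 0 lower, 6 stable, with a median of 1.97, which was 0.56 against LIF_serum lines 1 and 2 and 1.96 against lines 3 and 4. Cdh2, N-cadherin, had 4.65, 4.02, 4.05 and 4.10 in EpiSC and 0.35, 1.06, 0.57 and 0.65 in LIF_serum, 11.7-fold higher without overlap (adjusted p = 6.0e-05). Vim, an intermediate filament protein (2.19, SE 0.33), the repressors Zeb1 (3.01, SE 0.32) and Zeb2 (3.94, SE 0.79, at least 3.89) and the fibronectin receptor Itga5 (1.97, SE 0.43) rose. S100a4, a calcium-binding protein of motile cells, was at 4.48, 3.47, 4.48 and 3.45 in EpiSC, 4.22 and 3.87 in LIF_serum lines 1 and 2, and −2.71 and −2.66 in lines 3 and 4. It differed by −0.07 from lines 1 and 2, did not pass over all lines (3.29, adjusted p = 0.055), and passed with slide as a term (5.29) and without LIF_serum line 1 (4.47) or line 2 (4.36).

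Markers of fibroblasts, a common feeder layer of such cultures, moved with the groups and with the pairs of LIF_serum lines. Of 21 markers 19 were higher and 0 lower in EpiSC, 13 stable, with a median of 2.84 (3.82 with slide as a term). The median was 1.63 against LIF_serum lines 1 and 2 and 4.21 against lines 3 and 4, and 11 of the 21 were lower in lines 3 and 4 than in lines 1 and 2. The mean level of the list was 3.24, 2.81, 3.41 and 2.77 in EpiSC, 1.26 and 1.04 in LIF_serum lines 1 and 2, and −1.17 and −1.23 in lines 3 and 4. The signals of 10 defining markers (Col1a1, Col1a2, Col3a1, Dcn, Lum, Postn, Pdgfrb, Thy1, Fap and Twist2), summed in multiples of each array's 75th percentile, were 208.65, 162.93, 225.19 and 147.83 in EpiSC. The sums were 87.3 and 71.0 in LIF_serum lines 1 and 2 and 11.4 and 12.4 in lines 3 and 4. Summed over all 21 markers, the signals were 865.11, 706.21, 852.08 and 667.4 in EpiSC. They were 339.43 and 298.92 in LIF_serum lines 1 and 2 and 355.87 and 356.71 in lines 3 and 4. The sum over 21 markers was thus not lower in lines 3 and 4. All 10 defining markers were well above background in every EpiSC line and in LIF_serum lines 1 and 2, and 7 in lines 3 and 4. Dcn, a matrix proteoglycan, had 4.51, 3.42, 4.50 and 3.61 in EpiSC, −0.29 and −0.51, then −4.89 and −4.46. It was higher against all lines (6.55, SE 0.92, adjusted p = 4.4e-05, at least 6.43), as was the related Lum (6.65, SE 0.85, at least 5.56). Col1a1, Col1a2, Fap and Pdgfrb were called over all lines and not against LIF_serum lines 1 and 2 (0.83, 1.20, 1.63 and 0.999). In bulk RNA, fewer cells of a type and less RNA per cell cannot be told apart.

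Cytokines and chemokines were higher in 10 of 10 genes tested, 7 stable, with a median of 3.44, beside 18% higher over all genes. With normexp 9 were higher, and against LIF_serum lines 3 and 4 8. Only 5 were well above background on all 8 arrays, so the filter could admit the others through EpiSC, where they were higher. The 2 well above background on all 16 arrays were both higher (median 1.97), and 2 further genes of the list were below the filter. Ccl2, a chemokine that draws monocytes, had 5.75, 4.67, 6.01 and 4.46 in EpiSC, 0.31 and 0.16 in LIF_serum lines 1 and 2, and −3.78 and −3.61 in lines 3 and 4. Its neighbour in function Ccl7 had 4.08, 3.22, 4.45 and 3.04, then −0.06 and −0.35, then −5.69 and −6.38. Both stood apart from every LIF_serum line, by 6.95 (SE 0.79, adjusted p = 4.5e-06) and 6.82 (SE 1.12, adjusted p = 0.00014). For Ccl7, lines 3 and 4 lay below the lowest measurable signal, so its difference is at least 6.16. Cxcl1, a chemokine for neutrophils (6.25, SE 0.76, at least 6.04), rose in the same way, and Il6, an interleukin that signals through STAT3 (3.71, SE 1.04, at least 2.87), was not called against LIF_serum lines 1 and 2 (1.29, adjusted p = 0.11). EpiSC lines 1 and 3 were above lines 2 and 4 in Ccl2, Ccl7, Cxcl1 and Il6, as they were in the mean level of the fibroblast markers. Of 5 haematopoietic markers, which would include macrophages, 0 were higher and 2 lower, with a median of −0.36, −1.62 against LIF_serum lines 1 and 2 and 0.35 against lines 3 and 4. Csf1r, the macrophage colony-stimulating factor receptor, was lower (−1.19, SE 0.46, adjusted p = 0.042) but lost the call in 6 of 8 fits without 1 array, those without LIF_serum line 1 or 2 or any EpiSC line (adjusted p = 0.055 to 0.12).

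Matrix proteases and their inhibitors were higher in 11 of 12 genes, 8 stable, with a median of 2.61. Against LIF_serum lines 1 and 2, 8 were higher and 1 lower, and against lines 3 and 4, 12 were higher. Only 7 were well above background on all 8 arrays, and 2 were so on no LIF_serum array. The filter could admit the others through EpiSC, where most were higher. Of the 5 well above background on all 16 arrays, 4 were higher (median 1.83). Mmp3, a stromelysin, had 2.64, 1.22, 2.58 and 1.70 in EpiSC, −2.09 and −2.53 in LIF_serum lines 1 and 2, and −6.51 and −7.06 in lines 3 and 4 (6.59, SE 0.87, adjusted p = 1.9e-05). The last pair lay below the lowest measurable signal, so the difference is at least 5.55. Mmp13, a collagenase, rose by 4.38 (SE 0.58, at least 3.36). The plasminogen activators Plau (at least 8.54-fold) and Plat (2.74, SE 0.22) were higher, and Plat differed about equally from both pairs (2.68 and 2.81). The part of the fibroblast markers in the cytokine, protease and mesenchymal differences was not tested. Mmp3, Mmp10 and Mmp13, which lie in one cluster on chromosome 9, are shown because each holds the binding element of AP-1 in its promoter, for which they were picked. The element searched was TGACTCA on both strands, present in 3.49% of promoters of the genes tested, 4.62% of those of genes called higher and 4.46% of all promoters. Each line gives the last 120 bases before the start (RefSeq, GRCm38.p6), with TGACTCA or its reverse complement in capitals.
Mmp3, chr9:7445702-7445821, plus strand: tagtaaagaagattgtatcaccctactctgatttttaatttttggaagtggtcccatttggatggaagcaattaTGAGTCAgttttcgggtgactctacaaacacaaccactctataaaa
Mmp10, chr9:7502222-7502341, plus strand: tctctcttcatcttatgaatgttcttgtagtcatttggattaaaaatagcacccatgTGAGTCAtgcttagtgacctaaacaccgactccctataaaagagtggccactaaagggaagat
Mmp13, chr9:7272394-7272513, plus strand: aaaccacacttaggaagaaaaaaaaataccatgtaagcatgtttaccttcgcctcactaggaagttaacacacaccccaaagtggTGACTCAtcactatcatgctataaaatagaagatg
The element begins at −46 in Mmp3, −63 in Mmp10 and −35 in Mmp13. Of the 12 protease genes 7 had a promoter entry, too few to give a share for the list; 3 of these held the element and the other 4 did not. Binding was not measured.

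**Figure D4:**
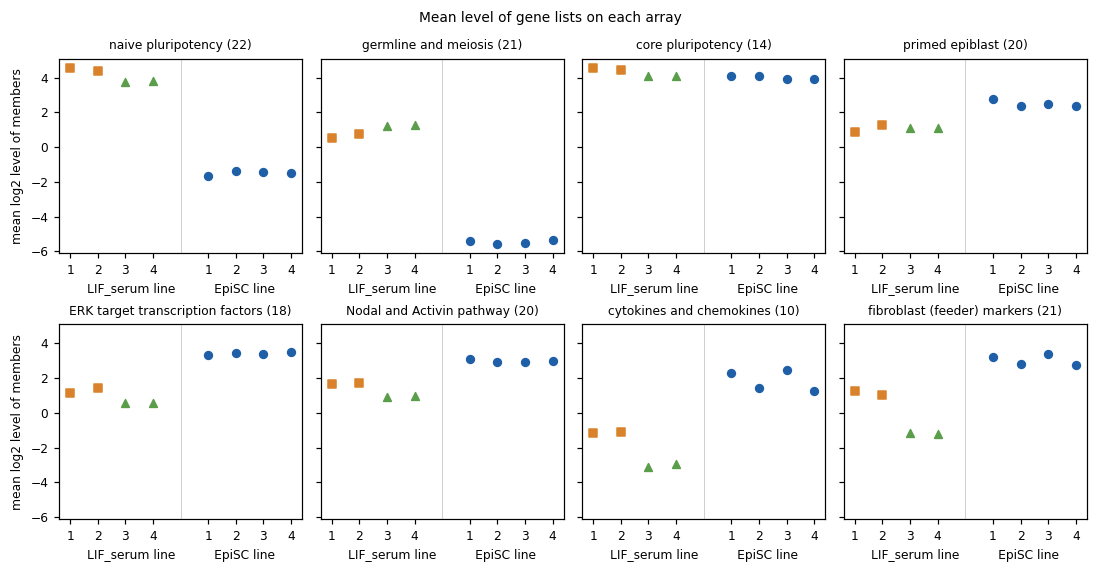
Mean log2 level of the members of 8 gene lists (number of members in brackets) on each array, with LIF_serum lines at the left and EpiSC lines at the right of each panel. Naive and germline means are lower in every EpiSC line; cytokine and fibroblast means are higher in EpiSC and lower in LIF_serum lines 3 and 4 than in lines 1 and 2.

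Growth factor, patterning and metabolic lists had smaller or mixed changes. In the insulin-like growth factor axis 5 of 11 genes were higher and 0 lower (median 1.29, 0.60 with normexp; 9 higher under median centring), among them the receptor Igf1r (2.43, SE 0.23) and the binding proteins Igfbp3 (2.43, SE 0.34) and Igfbp5 (5.54, SE 0.44). Of 14 Hox genes 9 were higher and 1 lower, 6 and 1 stable, with a median of 1.61 (0.80 with normexp). Against LIF_serum lines 1 and 2, 6 were higher and 1 lower, and against lines 3 and 4, 10 and 1. Only 6 Hox genes were well above background on all 8 arrays, and 2 were so on no LIF_serum array. Of the 4 well above background on all 16 arrays, 3 were higher and 0 lower (median 1.41). Hoxc6 had 1.28, 0.33, 1.17 and 0.03 in EpiSC, −1.18 and −1.38 in LIF_serum lines 1 and 2, and −3.77 and −4.31 in lines 3 and 4, the order seen for the fibroblast markers, whose part was not tested. Hoxa2 was even over EpiSC lines (−2.60, −2.54, −2.70 and −2.66) and at least 4.57-fold higher. Of 12 neural genes 5 were higher and 2 lower (median 0.83), and the 8 well above background on all 16 arrays had a median of −0.01. Sox1, an early neural factor (3.15, SE 0.39), and Fabp7, a fatty acid carrier of radial glia (4.59, SE 0.26), rose, while the Notch target Hes5 fell (−2.34, SE 0.57).

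Among 13 genes of threonine and one-carbon metabolism 1 was higher and 4 lower, with a median of 0.22; under median centring 5 were higher and 3 lower, with a median of 0.76. Tdh, which starts threonine breakdown and is a known requirement of mouse embryonic stem cells, had −0.33, −1.02, −1.02 and −0.88 in EpiSC and 7.52, 7.58, 6.25 and 6.34 in LIF_serum, 213-fold lower (SE 0.37 on the log2 scale, adjusted p = 4.9e-10). The next enzyme, Gcat (−2.21, SE 0.20), and Gldc, of glycine cleavage (−1.76, SE 0.24), fell with it. Of 18 glycolytic genes 0 were higher and 3 lower, with a median of −0.29 that became 0.25 under median centring. The lower calls are near the share over all genes (15.6%) and do not set the list apart. Those lower were Pfkp, a phosphofructokinase (−2.49, SE 0.21), Ldhb, a lactate dehydrogenase subunit (−2.05, SE 0.25), and Hk1, a hexokinase (−1.40, SE 0.31), the last under 2-fold against LIF_serum lines 1 and 2 (−0.91) and with median centring (−0.86). Of 15 genes of cytochrome c oxidase and its regulators 1 was higher and 3 lower, beside 18% and 15.6% over all genes. Their median of −0.37 became 0.17 under median centring. Cox7a1, a subunit of muscle-type oxidase, fell by 1.74 (SE 0.38).

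Against LIF_serum lines 1 and 2, 1622 genes were called that were not called against lines 3 and 4, 1549 the other way round, and 16 were called in opposite directions. One of the 16, chosen after its values were seen, was Mgp, a matrix protein that inhibits calcification. It had 2.63, 1.62, 2.98 and 1.88 in EpiSC, 3.42 and 3.24 in lines 1 and 2, and −5.30 and −5.60 in lines 3 and 4. The EpiSC lines were lower than the first pair (−1.05) and higher than the second, by at least 6.99, since lines 3 and 4 lay below the lowest measurable signal. Over all lines it did not pass (3.34, adjusted p = 0.10), and it passed with slide as a term (5.01) and without LIF_serum line 1 (4.83) or line 2 (4.77). Of the 5213 genes called over all lines, 610 also differed between the pairs.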

How the data were processed

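RNA of 16 cell lines was hybridised to 1-colour Agilent mouse arrays, 8 of which are described here. Per the file headers, the authors' spot intensity values came from Agilent Feature Extraction 10.7.1.1 (background-subtracted processed signal, array annotation on build mm9); the submitters' processing notes also name limma. The deposited log2 table of the authors holds 42316 probes, with column medians of 7.51 to 7.56 in the 8 arrays; its scale tracked the scanner values (correlation 0.990 to 0.993), its centring is unstated, and it served as an alternative. Per the labels' protocols, low-input labelling started from column-purified RNA.

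Here the log2 processed signal was set against each array's 75th percentile, control spots and outlier-flagged spots were left out, and spots of a probe were averaged. Of 55681 probes 27656 matched 1 gene symbol through RefSeq accessions, 16194 were named by position alone and 11831 had no match; they gave 20972 symbols. A gene was tested with its brightest probe, where the scanner software marked that probe as well above background on each of the 4 arrays of some group. limma 3.58.1 (R 4.3.3) fitted 4 group means over 16 arrays. The number of arrays limits the precision. No per-sample column was left unmapped (0). The fit was tested on simulated data with 200 changed genes. It recovered 44 of 67 changes of 1.2 log2 steps, 64 of 67 of 2 and 66 of 66 of 4, with 7 false calls. The simulation drew independent noise for 23848 probes well above background on all 16 arrays. It had no pairs of lines, no dim probes and no fold minimum, so it does not check the calls under those conditions.

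Named genes are the 12 largest stable rises and falls measured on all 8 arrays, the 4 largest bounds each way, and list members; some genes stand in several lists. The comparison, lists and rules were chosen with earlier results of these data known. Alternatives covered scaling, background, filter, probe choice, fold minimum, slide, passage, replicate block, the deposited table, either pair of LIF_serum lines and each array left out. Slide as a term between the pairs of LIF_serum lines, and raising dim arrays to the lowest measurable signal for single genes, were added after seeing the data. Promoter sequences are RefSeq's (GRCm38.p6), matched by symbol.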

Additional observations from a re-analysis of the deposited data

Results flagged for a closer look

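In 304 groups of 4 lines (152 named genes in EpiSC and in LIF_serum), 13 held a line that stood far from the other 3 relative to the group's range, where chance alone gives about 1 in 20 groups. EpiSC line 1 was the high one for Fgf5 (4.42, next 3.72), Etv5 (5.68, next 5.54), Eomes (1.54, next 0.31), Cdh2 (4.65, next 4.10) and Zeb2 (1.19, next 0.65). EpiSC line 4 was high for Klf4 (4.18, next 3.84) and Lefty2 (6.82, next 6.53), and EpiSC line 2 for Lin28b (4.89, next 4.74). EpiSC line 3 was low for Dpys (−5.02, next −3.77). Among LIF_serum lines, line 2 was high for Fgf5 (−0.26, next −1.85) and T (−0.54, next −2.94), and line 3 for Crispld1 (−4.97, next −6.94) and Lgr5 (−6.39, next −6.93), both near or below the lowest measurable signal. The gaps for Etv5, Lefty2, Lin28b and Klf4 were small in size against the differences between other genes' groups. No cause was tested.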

How the results depend on the processing

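Calls over all genes numbered 2786 higher and 2427 lower, and 3777 were stable. Without a fold minimum they were 4596 and 3678. Median centring gave 5109 higher; leaving dim probes in gave 4008 lower over 20972 genes, and keeping only probes above background on all 16 arrays gave 1793 and 1544 over 12337 genes, with 2359 stable, since fewer genes were tested. Leaving out 1 array gave 2637 to 2762 higher, 2319 to 2423 lower and 3258 to 3718 stable. The other settings stayed within 1.5 times.

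Replicate numbers are shared by the labels of both groups. As a block (pairing by number) they gave 2759 higher and 2417 lower, and S100a4 passed (adjusted p = 0.048); same-numbered lines correlated at 0.14, −0.12, −0.11 and 0.21 after removal of group means, and 1 of 4 pairs matched its own number best, so the numbers were not taken to pair the lines.

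Signs turned for Gbx2 against LIF_serum lines 1 and 2 (−1.57) and without LIF_serum line 3 or 4 (from −0.17 to 1.30 without 1 line), Pou5f1 (0.10) and Dnmt3b (0.12) under median centring, Spry4 (−0.079), S100a4 (−0.071) and Mgp (−1.05) against lines 1 and 2, and Col4a1 (−0.073) against lines 3 and 4, which is also the comparison within 1 slide. Of the other values for named genes under the alternatives, 3465 kept their side of the threshold, 48 lost it and 59 gained it; list counts stayed within 1.5 times in 1226 values and moved in 118. Background correction with normexp was planned on mean spot signals, which the files do not hold, so it was not run; on median signals, chosen after seeing the data, it gave 2129 and 1823. Causes were not tested. Low signals near background limit large differences: they are bounds where no array of a group was well above background, and fitted values beside a smaller size where only some arrays were dim.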
